A study of Rousettus aegyptiacus with 32 samples.

Results

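The longest transcript models of the Egyptian fruit bat, Rousettus aegyptiacus, were examined in the RNA-seq data of 6 brain regions. Each library was quantified against the same 55974 reference sequences, called transcript models here and known only by IDs of the form mRNA551. Models were chosen by length alone: 88 were at least 800 kb long, and the 59 of these with at least 1 estimated read in any library are the members described below. The other 29 had no read in any library, and 26 of them were numbered within 5 of a member. Member lengths ran from 808.7 kb to 1927 kb, with a median of 974.7 kb, and 24 members exceeded 1000 kb.

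The study concerned convergent evolution of regulatory DNA and proteins in mammals that learn vocalisations. Poly(A)-selected RNA from flash-frozen bulk tissue was sequenced from 4 cortical areas and from the striatum of 2 adult animals, a female (bat 6) and a male (bat 7). Cortex was represented by 2A (secondary auditory), ofM1 (primary motor, orofacial), wM1 (primary motor, wing) and PreM (premotor), and striatum by caudate and putamen. Each region had 1 library per animal, so there were 8 cortical and 4 striatal libraries, and sex cannot be told apart from animal. No genetic change or treatment is named in the labels. No spread within an animal was measured, and p-values refer to the spread between these libraries. The model IDs are not paired with gene names in the files, and 0 member IDs matched the RefSeq gene table used, so no member is named as a gene, no sequence is shown, and regional marker genes could not be checked.

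As background, very long genes are a feature of the vertebrate brain. Many encode cell adhesion molecules, synaptic scaffolds, ion channels and other proteins of neurons, and their length lies almost wholly in introns. RNA polymerase needs many hours to traverse such a gene, so much of the RNA made from it at any time is unfinished precursor. Cortex is built mainly of glutamatergic projection neurons with GABAergic interneurons, and striatum mainly of GABAergic medium spiny neurons. In bulk tissue, fewer cells of a type and less RNA per cell cannot be told apart.

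Spliced mRNAs do not reach lengths of this order, whereas genes with their introns do. The sources used here do not say whether these reference sequences hold introns, so a read assigned to a member may come from spliced or unspliced RNA. Reads that fit several overlapping models were divided among them by the quantification, which makes the level of a single model uncertain where a near-equal model stands beside it.

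The libraries held 40790810 to 76023989 estimated reads. The members took 153428 to 341161 of them per library, 0.426% ± 0.055 of all reads (SD, n = 12 libraries). The share was 0.424% ± 0.0512 in cortex (SD, n = 8) and 0.429% ± 0.0706 in striatum (SD, n = 4), a difference smaller than the spread in either. It was highest in 2A of bat 7 (0.530%), putamen of bat 6 (0.498%) and caudate of bat 7 (0.477%), and lowest in caudate of bat 6 (0.347%). The 3 libraries with the highest shares were also the 3 that correlated least with the rest over all models (median Spearman coefficient 0.715 for putamen of bat 6, 0.769 for 2A of bat 7 and 0.795 for caudate of bat 7, against 0.807 to 0.861 for the others). In 2A of bat 7 and putamen of bat 6, models under 5 kb also took the largest shares of reads, 22.2% and 21.7%. The part of these library differences in the results below was not tested. Results between cortex and striatum are also given without 2A of bat 7 and both putamen libraries, a choice made after the data were seen. This set keeps caudate of bat 7 and leaves out putamen of bat 7, so it is not the 3 least correlated libraries. Striatum is then caudate alone in each such result. Below, the 3 libraries are those left out here.

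Most members were well covered. Of the 59, 47 had reads in all 12 libraries and 5 in 2 to 11 libraries, while 7 had reads in 1 library only. Those 7 did not pass the filter on low counts, leaving 52 members for testing. The filter favours models with reads in at least 2 libraries, so counts over the 52 do not describe all 59. Among models of each length class, the share with a read varied between 56.4% and 69.8% and was 67.05% at 800 kb and over. Of those with a read, 79.7% had reads in all 12 libraries at 800 kb and over, against 65.3% at 400 to 800 kb and 39.2% below 5 kb.

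Normalised read counts (CPM, counts brought to one library size) averaged at least 100 for 11 members, 10 to 100 for 35 and under 10 for 13. The median of the tested members was 45.1 CPM, against 6.32 CPM over all tested models. A longer sequence collects more reads at the same number of molecules, so levels of different members are compared in the deposited TPM, which is per length. On that scale the median of the tested members was 0.154 TPM, against 1.55 TPM over all tested models. If the lengths include introns, TPM understates the level of spliced RNA, so these values compare members with each other more safely than with shorter models. The highest 6 had mean TPM of 2.43 ± 1.02 for mRNA58011, 1.06 ± 0.38 for mRNA10557, 1.06 ± 0.20 for mRNA61312, 0.99 ± 0.23 for mRNA37899, 0.98 ± 0.31 for mRNA14175 and 0.91 ± 0.14 for mRNA55167 (SD, n = 12). The last 5 of these 6 differ by less than the SD of most of them, so their order is not resolved. These 6 models together held 49.2% of all reads on members.

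mRNA58011 (988567 bases) had the highest level. Its normalised counts in cortex were 457 and 723 CPM in 2A (bat 6, then bat 7), 485 and 354 in ofM1, 477 and 666 in wM1, and 286 and 467 in PreM. In striatum they were 790 and 947 CPM in caudate and 1442 and 500 in putamen. Putamen of bat 6 was the highest library, while putamen of bat 7 lay within the cortical range. The mean was 489.5 ± 145 CPM in cortex and 919.6 ± 395 in striatum, and the log2 difference of -0.93 ± 0.30 (SE) was not called (adjusted p = 0.158, edgeR).

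The next models were flatter across regions. mRNA37899 (1418396 bases) had 319 to 416 CPM in the 8 cortical libraries (median 385) and 277, 350, 372 and 271 CPM in caudate of bats 6 and 7 and putamen of bats 6 and 7. mRNA61312 (1164205 bases) had 273 to 361 CPM in cortex (median 338) and 289, 299, 347 and 233 CPM in striatum, in the same order. Both sets of values overlapped between cortex and striatum, and neither model was called (log2 0.24, adjusted p = 0.451, and log2 0.15, adjusted p = 0.713, edgeR). mRNA10557 (822513 bases) was also not called, with 106 to 267 CPM in cortex and 184 to 390 in striatum (log2 -0.42, adjusted p = 0.417). mRNA40191 (977816 bases) had 38.5 to 51.9 CPM in the 4 cortical libraries of bat 6 and 82.0 to 225 in those of bat 7, a gap between animals in each cortical area that exceeded its cortex to striatum difference (log2 -0.70, adjusted p = 0.647).

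**Figure D1:**
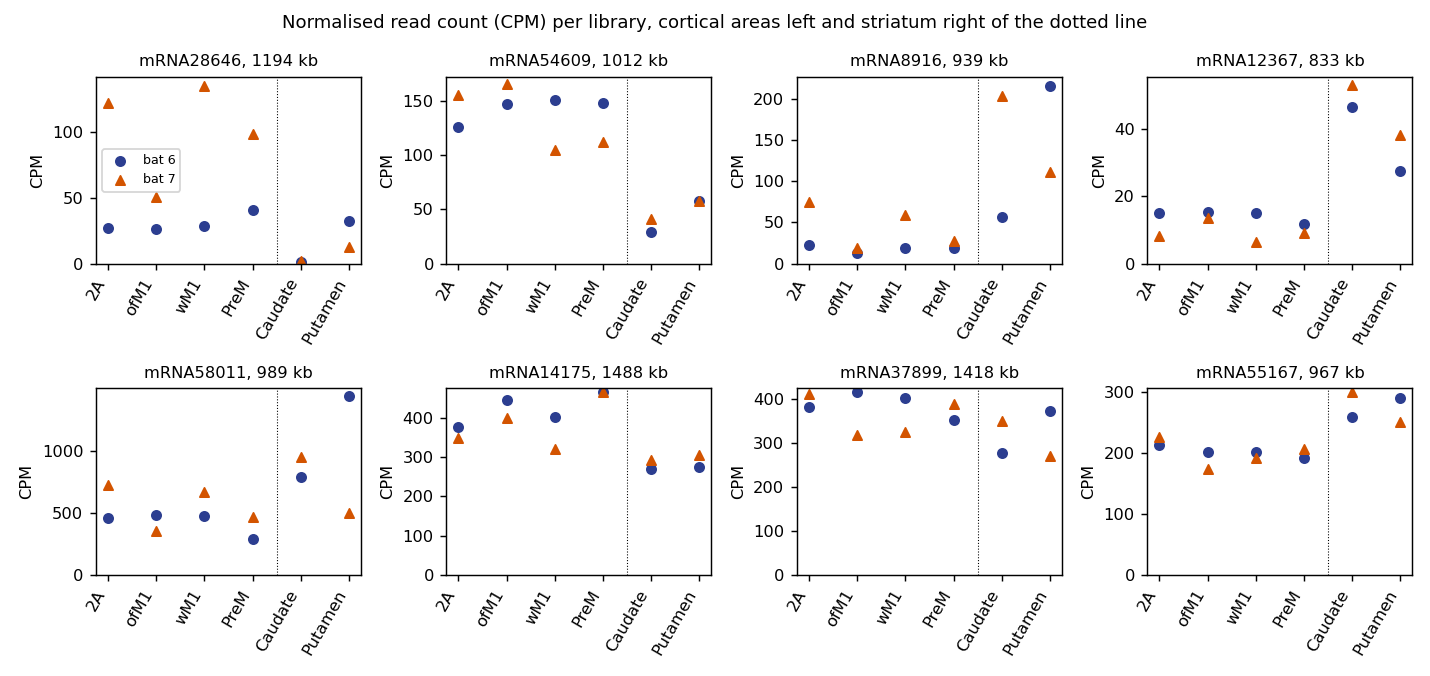
Normalised read count (CPM, vertical axes from 0) of 8 members in the 12 libraries, with regions on the horizontal axes, circles for bat 6 and triangles for bat 7. The upper row holds the members of largest called difference between cortex and striatum, and the lower row 4 members of high level. In mRNA54609 and mRNA12367 the 8 cortical libraries are apart from the 4 striatal ones, while in mRNA28646, mRNA8916 and mRNA58011 the groups overlap.

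Cortex differed from striatum in 13 of the 52 tested members, 8 higher in cortex and 5 higher in striatum (edgeR quasi-likelihood test, Benjamini-Hochberg adjusted p under 0.05 over all 28713 models tested). Over all tested models 4.89% were called in this comparison, 2.57% higher in cortex and 2.32% lower. The 13 had reads in all 12 libraries and the same direction in each animal, with changes of 1.37- to 10.8-fold (median 2.47-fold), 5 of them under 2-fold. In 9 of the 13 the cortical and striatal libraries did not overlap. Counting called or not, 12 of the 52 had no overlap, 8 of them higher in cortex, against 7.17% of all tested models. Of the 52, 25 had a positive cortex minus striatum difference, with a median log2 of -0.08 against 0.03 over all models. That median depended on single libraries: it ran from -0.32 without 2A of bat 7 to 0.12 without caudate of bat 7, and was -0.30 without both putamen libraries and 2A of bat 7 (0.01 over all models). DESeq2 called 23 members, where it called 21.2% of all models.

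mRNA54609 (1011856 bases) showed the most stable difference. Its cortical values were 126 and 155 CPM in 2A (bat 6, then bat 7), 146 and 165 in ofM1, 150 and 104 in wM1, and 148 and 112 in PreM, and its striatal values 29.5 and 41.4 CPM in caudate and 57.7 and 57.6 in putamen. All 8 cortical libraries exceeded all 4 striatal ones, and the caudate libraries were the lowest. The mean was 138 ± 21.7 CPM in cortex and 46.5 ± 13.7 in striatum (log2 1.61 ± 0.18 SE, adjusted p = 0.00244, edgeR). It was called with each of the 12 libraries left out in turn, and without both putamen libraries and 2A of bat 7 (log2 1.95, adjusted p = 0.0192).

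mRNA28646 (1194302 bases) had the largest fold among the 13. Cortex gave 27.0 and 122 CPM in 2A (bat 6, then bat 7), 26.3 and 51.0 in ofM1, 28.3 and 135 in wM1, and 40.95 and 98.8 in PreM. Striatum gave 1.02 and 2.07 CPM in caudate and 32.4 and 12.4 in putamen. Caudate was low in each animal, while putamen of bat 6 exceeded 3 cortical libraries of the same animal. The log2 ratio of mean CPM in cortex to that in striatum was 0.88 in bat 6 and 3.82 in bat 7. In bat 6 the striatal mean came mostly from putamen (32.4 CPM against 1.02 in caudate). The fit weighs regions on the log scale, a different measure, and gave a log2 difference of 3.44 ± 0.73 (SE, adjusted p = 0.0401, edgeR). This difference was called in 2 of the 12 fits with a library left out. Without both putamen libraries and 2A of bat 7, so against caudate alone, it was 5.03 with an adjusted p of 0.0512.

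On the striatal side, mRNA12367 (833252 bases) had 14.9 and 8.21 CPM in 2A (bat 6, then bat 7), 15.2 and 13.6 in ofM1, 14.9 and 6.46 in wM1, and 11.6 and 9.02 in PreM, against 46.4 and 52.9 in caudate and 27.4 and 38.2 in putamen. No library of one group reached the range of the other. The mean was 11.7 ± 3.45 CPM in cortex and 41.2 ± 11.03 in striatum (log2 -1.79 ± 0.27 SE, adjusted p = 0.0109, edgeR), and the call held in 10 of the 12 fits with a library left out and without the 3 libraries named above (adjusted p = 0.0315).

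mRNA8916 (939463 bases) had the largest fold among the 5 called members that were higher in striatum. Cortex gave 22.5 and 74.4 CPM in 2A (bat 6, then bat 7), 12.9 and 19.4 in ofM1, 18.4 and 58.9 in wM1, and 19.2 and 27.5 in PreM, and striatum 56.0 and 203 in caudate and 216 and 111 in putamen. Caudate of bat 6 fell below 2 cortical libraries of bat 7, but within each animal every striatal value exceeded every cortical one. The log2 difference was -2.33 ± 0.49 (SE, adjusted p = 0.0398, edgeR), called in 2 of the 12 fits with a library left out and not without the 3 libraries (adjusted p = 0.085).

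Among the members of highest level, 3 were called. mRNA14175 (1488308 bases) had 321 to 465 CPM in the 8 cortical libraries (median 402) and 271, 293, 274 and 306 CPM in the striatal ones, and mRNA55167 (967110 bases) had 174 to 225 CPM in cortex (median 202) and 259, 299, 290 and 251 in striatum. In each the groups did not overlap and the spread within a group was small, with changes of 1.40- and 1.37-fold (log2 0.49 ± 0.10 SE, adjusted p = 0.0424, and -0.46 ± 0.10 SE, adjusted p = 0.0429, edgeR). mRNA9639, the shortest member (808653 bases), averaged 153 ± 60.3 CPM in cortex and 62.8 ± 32.2 in striatum with overlapping groups (log2 1.31 ± 0.28 SE, adjusted p = 0.0404, edgeR). With the animal as a block, none of these 3 was called (adjusted p = 0.0633, 0.0664 and 0.0673, edgeR), and none was called without caudate of bat 6. The longest member, mRNA58025 (1926990 bases), went the other way: 28.8 to 60.7 CPM in cortex against 36.6, 83.8, 105 and 120 in striatum gave a log2 of -1.05 ± 0.27 (SE) and an adjusted p of 0.0811, and 0.0459 with the block.

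The number called changed when single libraries were left out, and so did the number called over all models. Fits without a library also test more models, and the cause of the change was not tested. With the animal as a block 10 members were called (4.27% of all models), 8 of them among the 13. With RLE scaling the split was 8 higher and 3 lower (4.84% of all models called). Without caudate of bat 6 only 1 member was called, mRNA54609 (1.74% of all models), and without caudate of bat 7, 2 (1.76%). There were 3 calls without ofM1 of bat 6 (2.30%) and 3 without PreM of bat 7 (2.68%). Leaving out ofM1 of bat 7 or PreM of bat 6 gave 4 each (2.23% and 2.56%). Leaving out wM1 of bat 6 or bat 7 gave 6 each (2.48% and 2.71%), and 2A of bat 6 gave 8 (3.68%). All of these calls were among the 13. Without putamen of bat 6, 4 of the 6 called members were among the 13 (4.06% of all models). Without 2A of bat 7 it was 8 of 9 (3.70%), and without putamen of bat 7, 11 of 16 (13.5%). Over all models the share called ran from 1.74% without caudate of bat 6, beside 1 of 56 members, to 13.5% without putamen of bat 7, beside 16 of 56. Without both putamen libraries and 2A of bat 7, 5 of 53 members were called, 4 of them among the 13, and 5.04% of all models.

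**Figure D2:**
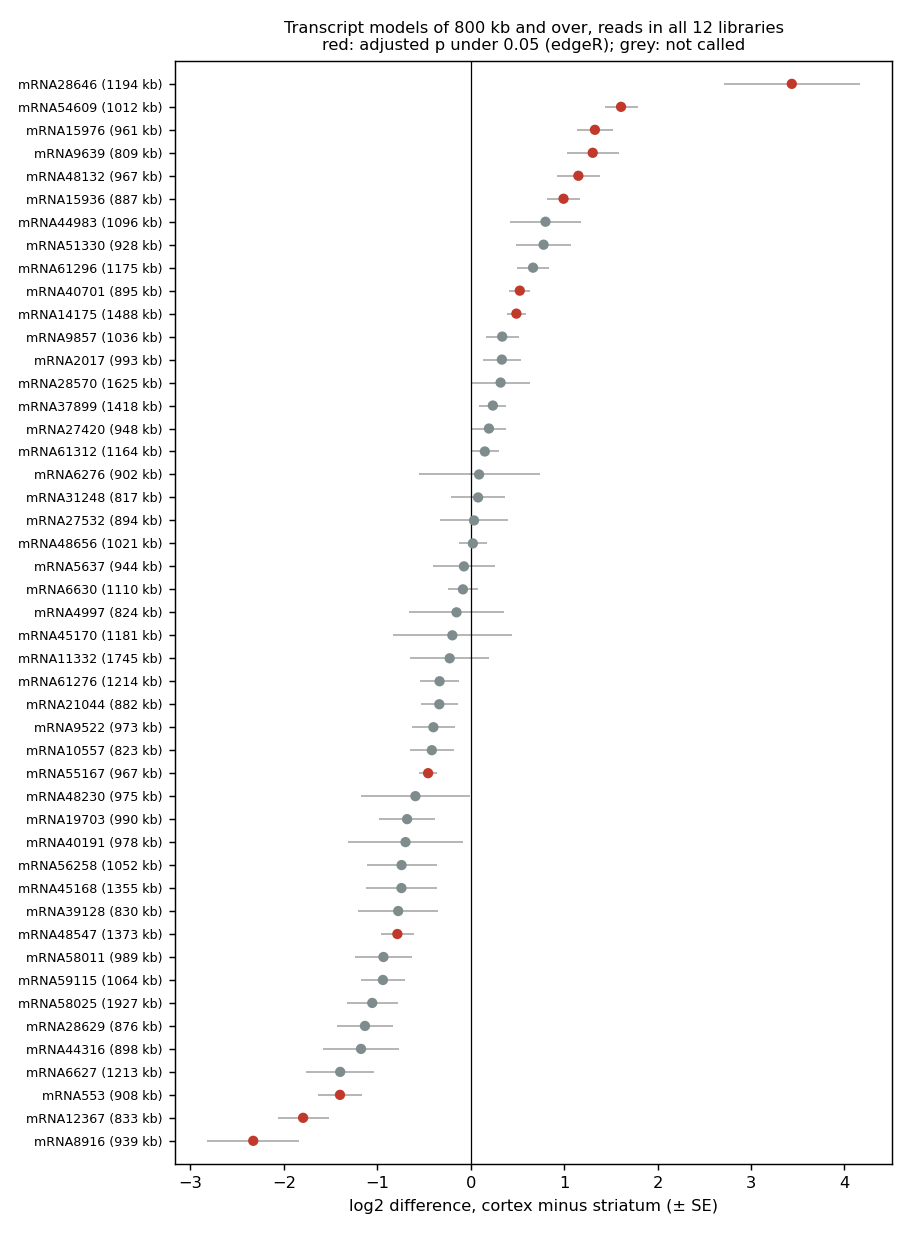
Log2 difference of cortex minus striatum (horizontal axis, ± SE) for the 47 members with reads in all 12 libraries, ordered by size, with the length of each in kb. The 13 called members (red) lie at both ends and, for members of small SE such as mRNA14175 and mRNA55167, close to 0.

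From 50 kb upward, the share of models called in this comparison was larger in each longer class. It was 4.48% below 5 kb, 4.21% at 5 to 20 kb, 4.17% at 20 to 50 kb, 5.45% at 50 to 100 kb, 6.61% at 100 to 200 kb, 10.5% at 200 to 400 kb, 13.2% at 400 to 800 kb (34 of 257) and 25% at 800 kb and over (13 of 52). The median absolute log2 difference over these 8 classes, in the same order, was 0.65, 0.60, 0.62, 0.65, 0.73, 0.74, 0.65 and 0.69, so it was larger at 100 to 400 kb than at 5 to 50 kb and lower again above 400 kb. The median of the mean counts was 3.24, 7.49, 6.94, 7.11, 6.63, 8.65, 16.2 and 45.1 CPM. It differed little from 5 to 200 kb and was highest in the last 2 classes. Among models with reads in all 12 libraries, 7.14% were called over all lengths, 19.0% at 400 to 800 kb and 27.7% of the 47 members. Among models at or above the members' median of 45.1 CPM, 11.2% were called, and 11 of the 26 such members. These shares are descriptions, since models of neighbouring or overlapping sequence are not independent. The part of read depth in the order by length was not tested.

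**Figure D3:**
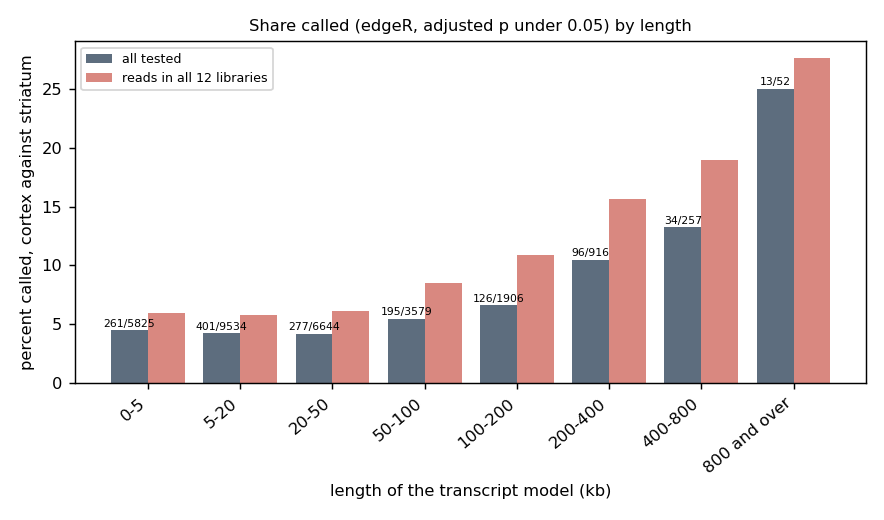
Percent of tested models called between cortex and striatum (vertical axis, from 0) by length class in kb (horizontal axis), for all tested models (dark, with the number called over the number tested) and for those with reads in all 12 libraries (light). Both series are highest in the class of 800 kb and over, at 25% and 27.7%.

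Summing consecutively numbered models whose lengths differ by at most 10% changed little for these models. The 59 members fell into 58 sums, of which 51 were single models and 7 held 2 or 3 models. In 6 of the 7 sums only 1 model had any read, so the reads of the sum are those of that model. Of the 51 sums tested, 14 were called between cortex and striatum (9 higher in cortex, 5 lower, edgeR), where 7.51% of all 24787 tested sums were called, 4.16% higher and 3.35% lower. DESeq2 called 22, and 18.4% of all sums. The leading members have the same reads alone and as sums, and the fit on sums gave them log2 differences of 1.67 ± 0.17 for mRNA54609 (SE, adjusted p = 0.000951), 3.49 for mRNA28646, -1.74 ± 0.27 for mRNA12366 with mRNA12367 (adjusted p = 0.0072) and -2.27 ± 0.47 for mRNA8916 (adjusted p = 0.0232). With the animal as a block 14 sums were called (6.92% of all sums), 11 of them the same.

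The exception was the sum of mRNA551, mRNA552 and mRNA553, in which 2 members of near-equal length went opposite ways. mRNA553 (908095 bases) had 19.5 and 31.1 CPM in 2A (bat 6, then bat 7), 12.8 and 20.1 in ofM1, 17.2 and 31.6 in wM1, 31.0 and 23.8 in PreM, 42.9 and 43.7 in caudate, and 94.8 and 74.6 in putamen. mRNA551 (875702 bases) had 10.2 to 24.8 CPM in the 8 cortical libraries, 7.33 and 3.43 in caudate, and 0 and 0.82 in putamen. mRNA553 was therefore lowest in cortex and highest in putamen, and mRNA551 the reverse, with no overlap between cortex and striatum in either. mRNA551 made up 24.4% to 51.7% of the reads of the sum in cortex and 0% to 14.6% in striatum. Alone, mRNA553 was called (log2 -1.40 ± 0.23 SE, adjusted p = 0.0161, edgeR) and mRNA551 was not (adjusted p = 0.150). The call of mRNA553 did not hold without caudate of bat 6. Their sum averaged 38.8 ± 9.15 CPM in cortex and 65.3 ± 22.3 in striatum, a smaller difference than that of mRNA553 alone (log2 -0.71 ± 0.16 SE, adjusted p = 0.0337, edgeR), which was not called with the block (adjusted p = 0.0511). Whether this is a change of isoform or of how shared reads were divided was not tested.

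Other members numbered close together behaved in several ways. Of 13 pairs of members at most 15 numbers apart, mRNA5637 and mRNA5640 were opposed across the 12 libraries (Pearson r of log2 levels -0.84), while mRNA45168 and mRNA45170 moved together (r = 0.78). These correlations are descriptions over libraries that share animals and regions. mRNA5640 (853136 bases) had reads in 8 libraries and was higher in bat 6 in each of the 6 regions: 32.9 against 0 CPM in 2A, 19.8 against 7.19 in ofM1, 31.3 against 10.02 in wM1, 12.8 against 0 in PreM, 7.63 against 0 in caudate and 35.8 against 0 in putamen. It was the only tested member higher in bat 6 in every region.

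No member was called between the 2 striatal regions or among cortical areas. Between caudate and putamen 0 of 52 members were called (0.181% of all tested models, edgeR). At an unadjusted p under 0.05 were 6 of the 52 members and 6.71% of all models, and DESeq2 called 5 members. DESeq2 called 8.77% of all models here, close to the share of members, so the 5 are not a result about the members. They were, named after their values were seen, mRNA40701 and mRNA551, higher in caudate, and mRNA61276, mRNA28646 and mRNA9529, higher in putamen. Of the striatal libraries, only putamen of bat 6 held reads of mRNA9529 (8.04 CPM). mRNA40701 had 98.5 and 112 CPM in caudate and 65.3 and 68.7 in putamen, and mRNA61276 had 15.5 and 23.0 in caudate and 50.4 and 42.1 in putamen, so in each the animals had the same order. Without putamen of bat 7, edgeR called 2 members, mRNA551 and mRNA48659, each listed at 0 in the putamen library that remained, beside 3.70% of all models. Among the sums 0 were called (0.105% of all) and DESeq2 called 4 (4.94% of all). At an unadjusted p under 0.05 were 7 of the 51 sums and 7.55% of all sums.

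Between 2A and the 3 motor areas 0 members were called (0.0383% of all tested models, edgeR). At an unadjusted p under 0.05 were 5 of the 52 members and 4.16% of all models. DESeq2 called 5.69% of all models and 1 member, mRNA9529. That model had 22.9 CPM in 2A of bat 7 and 8.04 in putamen of bat 6 and was listed at 0 in the other 10 libraries. Among the sums 0 were called (0.00403% of all), and DESeq2 called 1 (2.18% of all). Members leaned to higher values in 2A: 44 of the 52 had a positive difference and the median log2 was 0.45, against -0.02 over all models. Without 2A of bat 7 the lean was gone, with 21 of 56 positive (43.6% of all models) and a median of -0.03 (-0.02 over all models). Without 2A of bat 6 the members' median was 0.76 (-0.19 over all models). Between ofM1 and wM1 0 members were called (0.0313%, edgeR) and 0 by DESeq2 (3.06% of all models). At an unadjusted p under 0.05 were 0 members and 0.801% of all models. Here 9 of 52 differences were positive and the median log2 was -0.38, against 47.8% positive and a median of 0 over all models. Without wM1 of bat 7 the members' median was -0.12. Between PreM and primary motor cortex 0 members were called (0.0348%, edgeR) and 0 by DESeq2 (2.92% of all models). At an unadjusted p under 0.05 were 0 members and 1.63% of all models. The members' median log2 was 0.02, against 0 over all models. The members' median was 0.17 without PreM of bat 6 (41 of 57 positive) and -0.09 without PreM of bat 7 (16 of 57 positive). Over all models these medians were -0.012 and -0.008, with 41.5% and 41.9% positive.

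The median level of the members differed between libraries more than that of all models, although single members departed from it. Relative to each model's own mean over the 12 libraries, the median log2 level of the 52 tested members was 0.64 in 2A of bat 7, 0.34 in putamen of bat 6 and 0.25 in caudate of bat 7, and -0.29 in ofM1 of bat 6 at the low end. Over all tested models these medians stayed between -0.26 and 0.04, and putamen of bat 6, among the highest for the members, was the lowest for all models. For models of 400 to 800 kb the medians were 0.43 in 2A of bat 7 and 0.18 in putamen of bat 6, between those of the members and of all models, but -0.27 in caudate of bat 6, below both (-0.15 and 0.01). Of the 52 members, 21 had their highest value in 2A of bat 7, where 12.4% of all tested models had theirs. mRNA10557 had its lowest value there, 106 CPM.

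**Figure D4:**
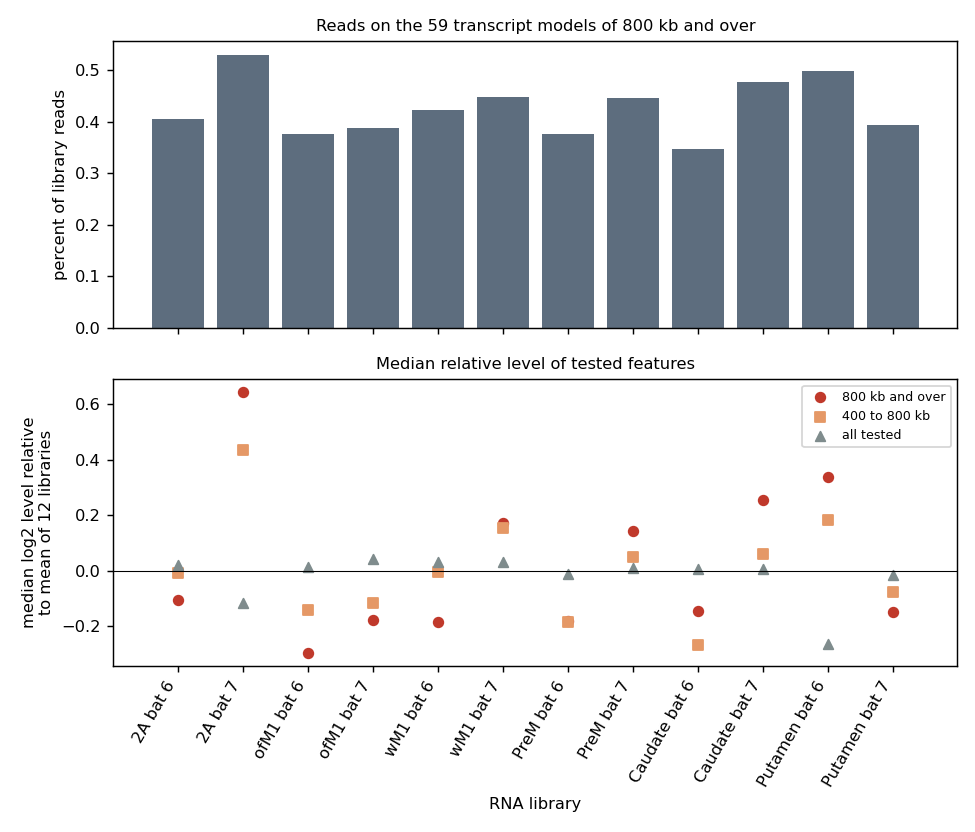
Upper panel: percent of each library's reads on the 59 members (bars from 0). Lower panel: median log2 level relative to each model's mean over the 12 libraries, for members (circles), models of 400 to 800 kb (squares) and all tested models (triangles). The members stand highest in 2A of bat 7 (0.64) and putamen of bat 6 (0.34), where the median of all models is below 0.

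Between the animals, a pattern chosen after its values were seen was common among the members, so its share is a description. With 1 library per region in each animal, differences between animals and between libraries cannot be told apart. Of the 47 members with reads in all 12 libraries, 21 were higher in bat 7 in the 4 cortical areas and caudate and lower in bat 7 in putamen (44.7%), against 5.999% of the 15887 models with reads in all 12 libraries. In a fit with animal and region, compared after the data were seen, 0 of 28713 models were called between the animals (edgeR), 38 of the 52 members had a positive bat 7 minus bat 6 difference and the median log2 was 0.30. Over all models 50.6% were positive and the median was 0.005. At an unadjusted p under 0.05, 9 of the 52 members passed and 5.03% of all models. Among sums 0.0121% were called, none of them holding a member. Only mRNA48132 (967 kb) was higher in bat 7 in all 6 regions, which held for 3.08% of all tested models. It was also called between cortex and striatum, with 98.6 ± 30.5 CPM against 44.1 ± 9.03 (log2 1.15 ± 0.23 SE, adjusted p = 0.0320, edgeR). That call did not hold without caudate of bat 6.

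**Figure D5:**
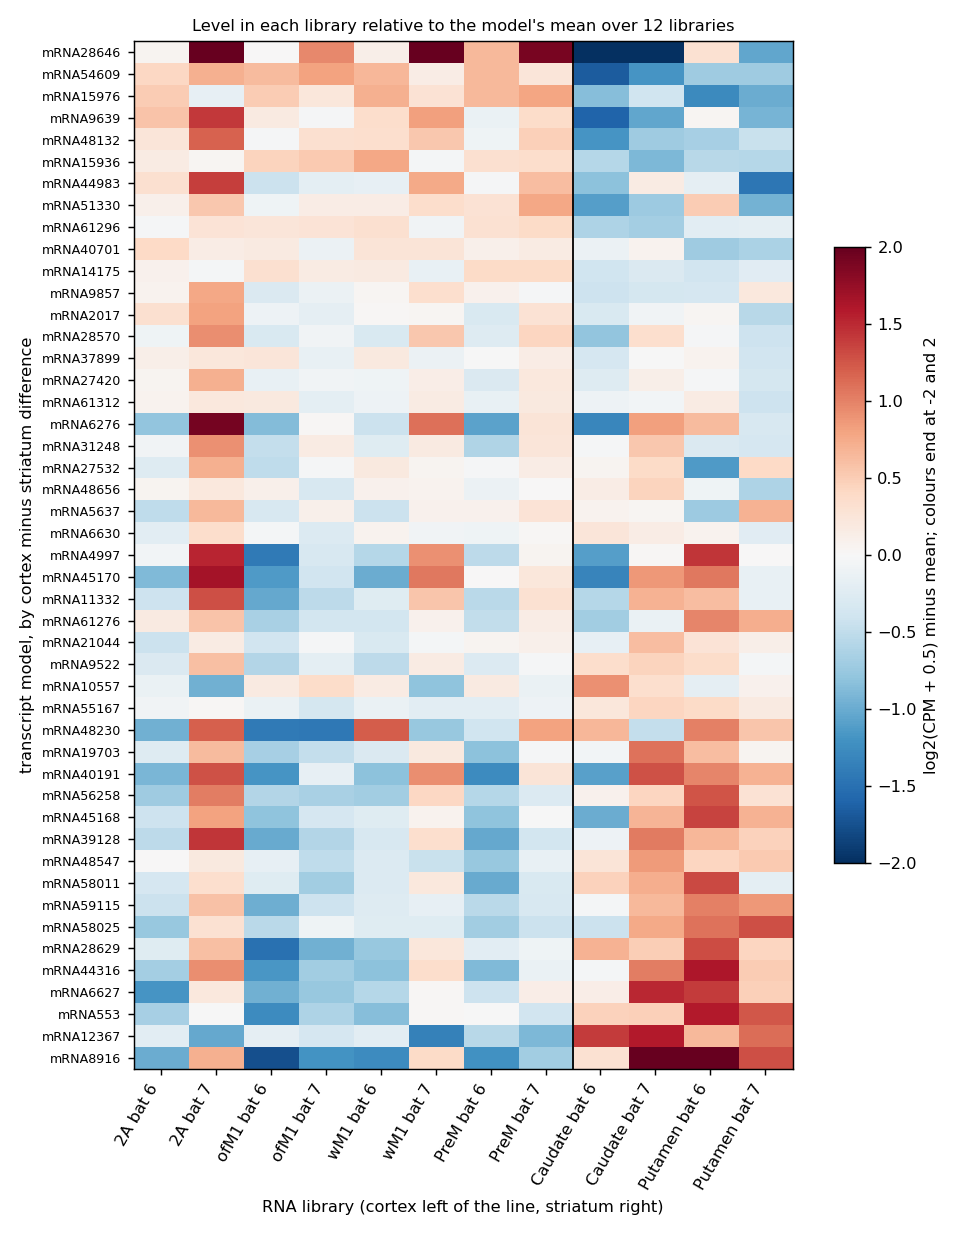
Log2 level of the 47 members with reads in all 12 libraries (rows, ordered by cortex minus striatum difference) in each library (columns), relative to the model's own mean, red above and blue below. Rows at the top and bottom have the largest differences between cortex and striatum, though the groups overlap in some, such as mRNA28646 and mRNA8916. The columns of 2A of bat 7, caudate of bat 7 and putamen of bat 6 are red in most rows between.

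Spread within cortex differed widely among the members. Over the 8 cortical libraries the coefficient of variation of the 47 members ran from 7.65% for mRNA55167 to 87.1% for mRNA6276, with a median of 29.9%. mRNA6276 had 31.9 to 49.7 CPM in the 4 cortical libraries of bat 6 and 68.6 to 256 in those of bat 7, highest in 2A.

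At the length threshold, the members just inside were mRNA9639 (808653 bases, 123 CPM on average), mRNA44985 (811419 bases, 0.0022 CPM) and mRNA13324 (812438 bases, 0.342 CPM). The models just outside were mRNA35504 (799782 bases, 5.83 ± 5.42 CPM, SD, n = 12), mRNA35500 (798453 bases, 65.5 ± 13.1 CPM) and mRNA28627 (796530 bases, no read), so high and low levels stood on each side of it. The 7 members with reads in 1 library ranged from 2.07 reads for mRNA44985 to 3484 for mRNA9859. The latter had 80.2 CPM in putamen of bat 6 and was listed at 0 in the other 11 libraries, while mRNA9857, numbered 2 below it and 1035522 bases long, had reads in all 12 and a mean of 86.8 CPM.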

How the data were processed

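RNA-seq was analysed in 12 libraries, and the 20 ATAC-seq peak lists were not used. The authors deposited, per library, estimated counts (not whole numbers) and TPM with each model's length. The submitters' processing notes name Salmon 1.5.2. Their genome build, annotation and settings were not given in the sources used here. Deposited TPM served only to compare levels between models. The estimated counts were rounded, filtered with edgeR's filterByExpr on the 6 regions (minimum count 10), scaled by TMM and fitted in edgeR 4.0.16 under R 4.3.3 (glmQLFit, then the 2-sided glmQLFTest) with 1 term per region. Benjamini-Hochberg adjustment ran over all models tested, at 0.05. The SE is the log2 difference divided by the square root of F. A fit without a library leaves 1 region with 1 library, assumed to vary like the others, and tested 31286 to 31764 models against 28713. The fit was also run on simulated counts drawn without differences between animals, which cannot show how often its calls in these libraries are wrong.

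Same-numbered libraries come from the same animal, so the numbers pair the libraries. Differences between the animals correlated between regions with r of -0.31 to 0.25 (median 0.062, 15 pairs of regions, 4 above 0.1). Alternatives were DESeq2 1.42.0, RLE scaling, no filter, a replicate block, only the regions compared, each library left out, length tolerances of 5% and 20%, and, chosen after seeing the data, gaps in numbering, leaving out the 3 libraries, and the comparison of animals.

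The members and lists were chosen with earlier results of these data known. Named were the 8 sums of highest CPM, the 6 members of highest TPM, the longest, and 3 models on each side of the threshold. Added were the 2 largest called changes per direction with the same direction in both animals, and the 4 sums led by most different models. Of these sums, mRNA551 to mRNA553 had 2 leading models and the others 1 each, with ties ordered by mean CPM. mRNA5637, mRNA5640, mRNA45168, mRNA45170, mRNA48132, mRNA6276, mRNA9857, mRNA9859 and the DESeq2 calls were named after their values were seen. p-values for libraries of 2 animals measure only the spread between these samples.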

Additional observations from a re-analysis of the deposited data

Results flagged for a closer look

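Of 38 groups of 4 or 8 libraries examined, 3 held 1 library far from the rest. The share of reads on the members in cortex was 0.530% in 2A of bat 7, and the next cortical library had 0.449%; chance sets a library this far apart in about 1 in 20 groups. The other 2 are models with reads in 1 library only, so the gap follows from how members were chosen. In striatum, mRNA13324 had 4.10 CPM in caudate of bat 6 and was listed at 0 in the other 3 libraries. In cortex, mRNA44985 had 0.0267 CPM in wM1 of bat 7, about 2.07 reads, and was listed at 0 in the other 7.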

How the results depend on the processing

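Between cortex and striatum, DESeq2 called 23 members and 22 sums (21.2% of all models and 18.4% of all sums), against 13 and 14 with edgeR (4.89% and 7.51%). With the animal as a replicate block the counts were 10 and 14 (4.27% of all models and 6.92% of all sums). Among those named, the block ended the calls of mRNA14175, mRNA55167 and mRNA9639 as members. As sums, it ended the calls of mRNA55167 and of the sum of mRNA551 to mRNA553. RLE scaling gave 11 and 15 (4.84% of all models and 7.55% of all sums), and no filter 9 and 13 (3.22% and 5.80%). Length tolerances of 5% and 20% gave 13 and 15 sums, with the share over all sums not given here. With 1 library left out, 1 to 16 members and 3 to 19 sums were called. The shares over all models ran from 1.74% to 13.5%, and over all sums from 3.14% to 19.3%. Without both putamen libraries and 2A of bat 7, 5 members (5.04% of all models) and 11 sums were called. Sums fell to 3 without caudate of bat 7 (3.14% of all sums), and to 6 without ofM1 of bat 6 (4.20%) or putamen of bat 6 (6.21%). They fell to 7 without caudate of bat 6 (3.48%) or ofM1 of bat 7 (4.32%). The number was also 7 without wM1 of bat 6 (4.56%) or PreM of bat 6 (4.65%), and 8 without PreM of bat 7 (4.66%). The cause was not tested, although these fits hold fewer libraries and test more models.

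Between caudate and putamen, DESeq2 called 5 members and 4 sums against 0 (8.77% of all models and 4.94% of all sums), and leaving out 1 library gave 0 to 2 members and 0 to 1 sums. Between 2A and motor cortex DESeq2 called 1 member and 1 sum against 0 (5.69% and 2.18%). The block changed no other count from 0 in these comparisons, and leaving out 1 library gave 0 for 2A against motor cortex, ofM1 against wM1 and PreM against primary motor cortex.

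Among named sums, 3 reversed, none called. mRNA40191 (log2 -0.65) ranged from -1.07 to 0.12 with 1 library left out, and was above 0 without caudate of bat 7. The sum of mRNA6629 and mRNA6630 (-0.03) ranged from -0.16 to 0.032 with 1 library left out, reaching 0.032 without 2A of bat 6 and 0.017 without putamen of bat 6. The sum of mRNA4997 and mRNA4998 (-0.10) ranged from -0.40 to 0.32, and was 0.05 without 2A of bat 6, 0.04 without wM1 of bat 6, 0.21 without caudate of bat 7, 0.32 without putamen of bat 6 and 0.31 without the 3 libraries. The cause was not tested.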
